A study of Mus musculus with 7 samples.

Results

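The genes described here encode 9 enzymes that build, elongate and desaturate fatty acids, namely Acly, Acaca, Fasn, Elovl6, Elovl5, Scd1, Scd2, Fads1 and Fads2. They were taken by gene name from a table of 34745 genes, of which 21370 had at least 1 count. Each name matched 1 row, and all 9 genes passed the filter on low counts in every comparison. In the Ensembl IDs of the table they are ENSMUSG00000020917 (Acly), ENSMUSG00000020532 (Acaca), ENSMUSG00000025153 (Fasn), ENSMUSG00000041220 (Elovl6), ENSMUSG00000032349 (Elovl5), ENSMUSG00000037071 (Scd1), ENSMUSG00000025203 (Scd2), ENSMUSG00000010663 (Fads1) and ENSMUSG00000024665 (Fads2). The RNA came from 3T3-L1, a single line of murine preadipocytes that is widely used to grow fat cells in culture, and was sequenced as 7 libraries of 1 group each. The 6 treated groups received exosomes, small vesicles released by tissue, from adipose tissue (AT-Exos) for 48 h. Their sources were inguinal white (iWAT), visceral white (vWAT) and brown (BAT) adipose tissue of mice on a high-fat diet (HFD, obese) or a low-fat diet (LFD, lean). The groups are therefore HFD-iWAT-Exos and LFD-iWAT-Exos, HFD-vWAT-Exos and LFD-vWAT-Exos, HFD-BAT-Exos and LFD-BAT-Exos, and Control. The labels give the genotype WT and the cell type mouse embryonic fibroblasts for all 7 groups, and their protocols place the assays at days 8 to 10 of differentiation with insulin, IBMX and dexamethasone. The labels describe the control as untreated, while legends in the supplement name PBS, so an effect of the vehicle cannot be told apart from one of the exosomes in ratios to Control. How many mice gave the exosomes of a library was not given in the labels. With 1 library per group, differences between groups had no replicate check.

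Fatty acid synthesis begins with citrate, which ATP-citrate lyase (Acly) cleaves to cytosolic acetyl-CoA. Acetyl-CoA carboxylase 1 (Acaca) turns this into malonyl-CoA in the committed step, and fatty acid synthase (Fasn) joins the units into palmitate. Elovl6 lengthens palmitate to stearate, Scd1 and Scd2 place the first double bond into saturated chains, and Elovl5, Fads1 and Fads2 elongate and desaturate polyunsaturated fatty acids. In adipocytes many of these genes rise during differentiation and are known targets of the transcription factors SREBP-1c, LXR and ChREBP.

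Sequencing depth was 13493560 counts in LFD-vWAT-Exos and 17799636 to 24345291 in the other 6 libraries. Values are given as CPM, counts divided by the library total and its TMM scaling factor, or as the FPKM of the authors, which are also divided by gene length. Intervals are 95% counting intervals and cover neither PCR copies nor differences between cultures. The word apart is used of a gene whose ratio between 2 libraries reached 2-fold in either direction with an interval that did not include 1. LFD-vWAT-Exos stood apart from the rest, with 3648 to 3842 genes apart in the 4 comparisons that include it and 210 to 644 in the other 11. The cells were checked against markers of the adipocytes that the differentiation protocol is meant to give, and these were mixed. Of 16 adipocyte markers, 8 (Adipoq, Plin1, Cfd, Retn, Lep, Slc2a4, Cebpa and Cidec) never reached 1 CPM, nor did the 3 brown fat markers, although none of these lists' genes was at 0 in all libraries. Others were expressed, with Lpl at 216 CPM in LFD-vWAT-Exos against 926 to 1212 CPM in the other 6 libraries, Fabp4 at 75.04 against 78.4 to 174 CPM and Pnpla2 at 14.6 against 19.8 to 26.4 CPM. Pparg (21.5 CPM in LFD-vWAT-Exos against 12.5 to 14.2 CPM), Lipe (26.5 against 12.9 to 21.2 CPM) and Dgat2 (32.1 against 16.2 to 24.9 CPM) were highest in LFD-vWAT-Exos. The summed adipocyte markers, most of which is Lpl, were 389 CPM in LFD-vWAT-Exos and 1175 to 1442 CPM in the other 6 libraries. The 8 fibroblast markers summed to 25817 CPM in LFD-vWAT-Exos and 37235 to 44176 CPM in the others, although Lox among them was higher in LFD-vWAT-Exos, at 9977 against 5452 to 6083 CPM. For the 7 macrophage markers the sum was 40.5 CPM in LFD-vWAT-Exos, against 9.48 to 13.9 CPM elsewhere, with 3 of them, Ptprc, Adgre1 and Itgam, below 1 CPM everywhere. Cd68 (13.9 CPM in LFD-vWAT-Exos against 3.47 to 6.32), Csf1r (11.7 against 0.541 to 1.09) and Mrc1 (9.98 against 0.496 to 2.43) made the difference. Lyz2 did not differ, at 4.52 CPM in LFD-vWAT-Exos against 3.05 to 5.03 CPM. The 4 endothelial markers reached 2.96 CPM in LFD-vWAT-Exos and 0.638 to 1.27 CPM in the others, and the 5 epithelial markers stayed at or below 0.319 CPM. Whether these differences, or the lower depth, have a part in the results on LFD-vWAT-Exos was not tested.

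All 9 enzymes were expressed in these cells. In 6 of the 7 libraries they were almost level, whatever the source of the exosomes, and in LFD-vWAT-Exos they differed from one another in how far they lay from the other libraries, in a library where many genes of all kinds stood apart. There Acaca and Elovl6 were low, Elovl5 and Fads2 were lower to a smaller extent, Fasn, Acly and Fads1 were slightly lower, Scd1 lay within the range of the other libraries and Scd2 was at its highest. The plot of CPM by gene and library shows this pattern.

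**Figure D1:**
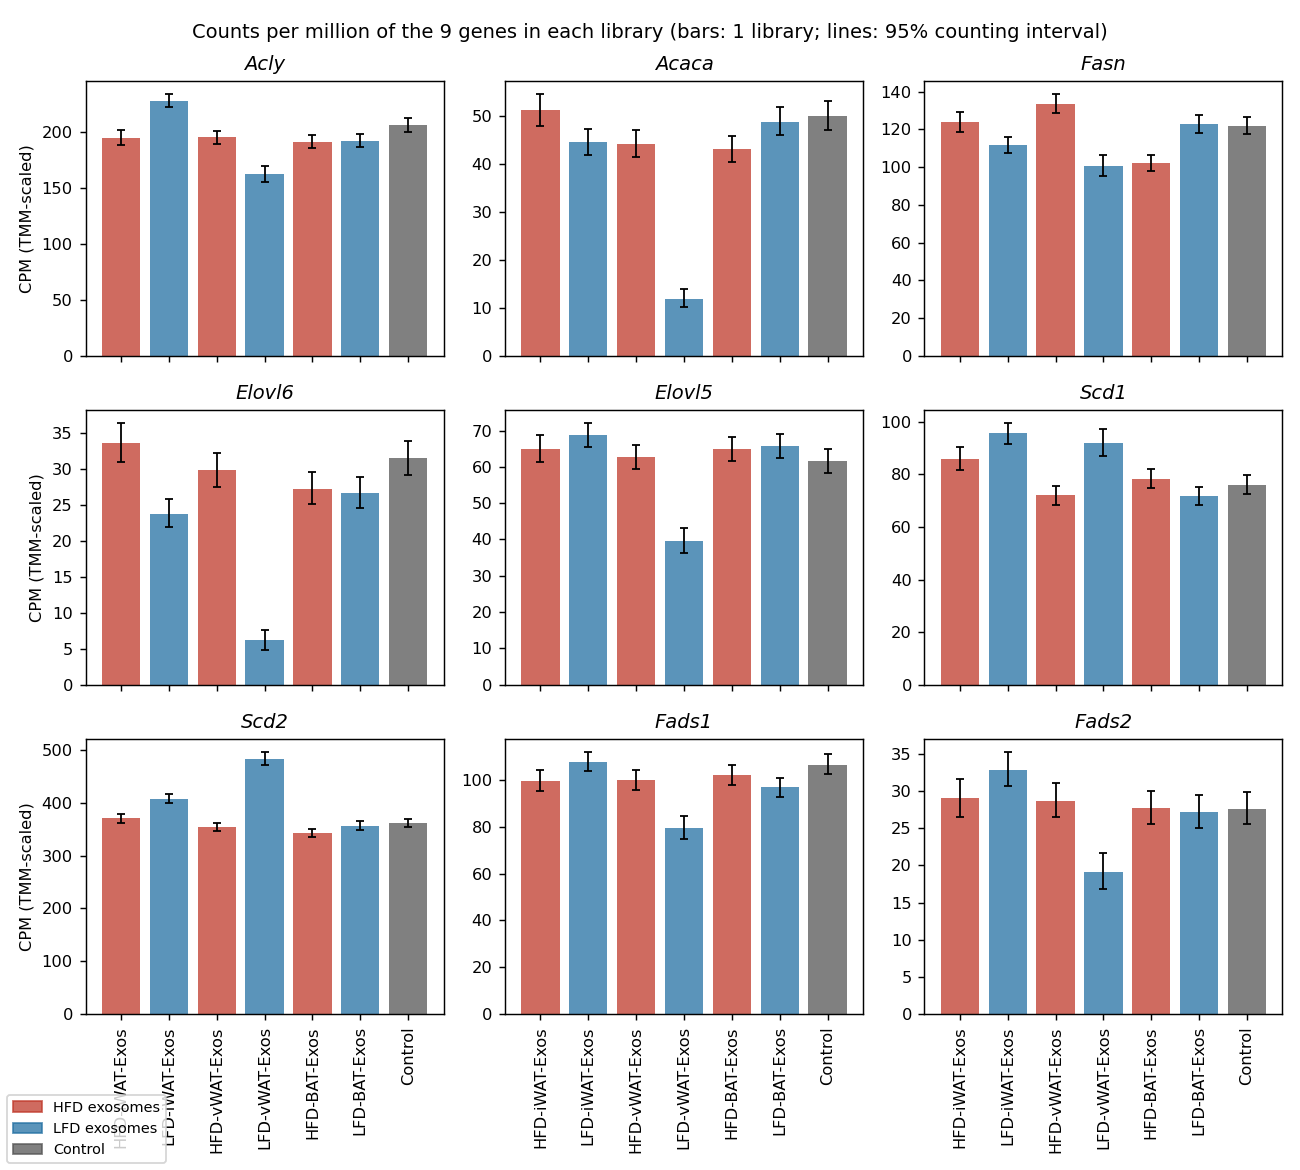
TMM-scaled CPM of the 9 genes in each of the 7 libraries, 1 bar per library, with 95% counting intervals as lines and HFD exosomes in red, LFD exosomes in blue and Control in grey. Acaca and Elovl6 drop to 11.9 and 6.16 CPM in LFD-vWAT-Exos, whereas Scd2 reaches 485 CPM there.

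The first enzymes supply the precursors. Acly, on the minus strand of chromosome 11 (GENCODE vM21, GRCm38, chr11:100476353-100528000), was at 195 CPM in HFD-iWAT-Exos, 195 in HFD-vWAT-Exos, 191 in HFD-BAT-Exos, 227 in LFD-iWAT-Exos, 162 in LFD-vWAT-Exos, 192 in LFD-BAT-Exos and 206 in Control. The exosome libraries thus lay on both sides of the control, and only LFD-iWAT-Exos was above it. Acaca (chr11:84129672-84401651, plus strand) was at 51.0 CPM in HFD-iWAT-Exos, 44.1 in HFD-vWAT-Exos, 42.9 in HFD-BAT-Exos, 44.5 in LFD-iWAT-Exos, 11.9 in LFD-vWAT-Exos, 48.7 in LFD-BAT-Exos and 49.96 in Control. The value in LFD-vWAT-Exos rests on 152 counts and has an interval of 10.0 to 13.9 CPM, and the next lowest library was 3.62-fold higher. Of the 31-base words of the Acaca transcripts, 31.7% also occur in Gm5182, a processed pseudogene (chr12:10152142-10158233), so a part of the reads could belong to either locus. Gm5182 is not among the genes analysed here by that name. The same sharing applies to all 7 libraries.

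The RefSeq promoter window of Acaca, 300 bases around a start site (GRCm38.p6, chr11:84195188-84195487, plus strand), is shown because this gene and Elovl6 were the lowest relative to the other libraries. It lies inside the gene as GENCODE draws it, at a start downstream of the first one, and is printed 5′ to 3′. Its end holds the forward primer with which the study measured this gene, there called Acc1, by PCR. That amplicon spans 65 bases of 1 exon (chr11:84195467-84195531).
Acaca promoter: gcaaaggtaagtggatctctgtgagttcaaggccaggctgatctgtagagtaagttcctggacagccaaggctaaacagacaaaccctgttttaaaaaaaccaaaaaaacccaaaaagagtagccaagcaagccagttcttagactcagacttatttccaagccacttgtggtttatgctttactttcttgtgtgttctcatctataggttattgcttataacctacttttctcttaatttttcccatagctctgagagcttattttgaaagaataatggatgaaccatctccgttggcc
Acc1 forward primer: gatgaaccatctccgttggc
Acc1 reverse primer: gacccaattatgaatcgggagtg
The primer pair matched 7 of 9 annotated Acaca transcripts.

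Fasn (chr11:120805846-120824547, minus strand) was the least displaced of the synthesis genes. It was at 124 CPM in HFD-iWAT-Exos, 134 in HFD-vWAT-Exos, 102 in HFD-BAT-Exos, 112 in LFD-iWAT-Exos, 101 in LFD-vWAT-Exos, 123 in LFD-BAT-Exos and 122 in Control. LFD-vWAT-Exos was the lowest but was hardly below HFD-BAT-Exos, so the libraries overlapped. Its promoter window (chr11:120824498-120824797, minus strand) is given beside that of Elovl6 (chr3:129532136-129532435, plus strand) to set a gene that stayed nearly level against one that did not. Capitals mark CCAAT boxes on either strand.
Fasn promoter: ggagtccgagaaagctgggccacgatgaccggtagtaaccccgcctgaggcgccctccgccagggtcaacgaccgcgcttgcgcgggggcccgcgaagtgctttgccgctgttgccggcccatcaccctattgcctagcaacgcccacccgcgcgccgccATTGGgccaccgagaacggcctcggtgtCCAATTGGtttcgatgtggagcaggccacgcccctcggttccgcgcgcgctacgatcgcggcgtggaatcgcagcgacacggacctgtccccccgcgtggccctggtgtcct
Elovl6 promoter: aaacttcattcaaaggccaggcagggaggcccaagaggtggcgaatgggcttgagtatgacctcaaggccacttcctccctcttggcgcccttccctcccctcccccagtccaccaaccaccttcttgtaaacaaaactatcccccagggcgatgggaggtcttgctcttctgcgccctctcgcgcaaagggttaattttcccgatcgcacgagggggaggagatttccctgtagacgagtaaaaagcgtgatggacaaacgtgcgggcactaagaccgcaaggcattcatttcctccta
Both strands of each window were searched for the E-box CACGTG, the CCAAT box CCAAT, the GC box GGGCGG and the sterol element TCACNCCAC. Fasn held 3 CCAAT boxes, of which 2 overlap, and the Acaca and Elovl6 windows held none of the 4 motifs. Among the other windows, Acly held 4 GC boxes and 1 CCAAT box, Elovl5 held 1 E-box and 2 CCAAT boxes, and Fads2 held 1 GC box. Of 32851 RefSeq promoter windows of the same length, 7.15% held the E-box, 37.4% the CCAAT box, 35.7% the GC box and 1.24% the sterol element. These matches describe the letters of the windows only.

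The elongases differed from each other in LFD-vWAT-Exos. Elovl6 (chr3:129532355-129638495, plus strand), which acts on saturated and monounsaturated chains, was at 33.6 CPM in HFD-iWAT-Exos, 29.8 in HFD-vWAT-Exos, 27.3 in HFD-BAT-Exos, 23.8 in LFD-iWAT-Exos, 6.16 in LFD-vWAT-Exos, 26.7 in LFD-BAT-Exos and 31.6 in Control. LFD-vWAT-Exos was below all other libraries, with 79 counts and an interval of 4.88 to 7.68 CPM, and LFD-iWAT-Exos was the next lowest at 3.87 times that level. Elovl5 (chr9:77917364-77984519, plus strand), the elongase of polyunsaturated chains, was at 65.0 CPM in HFD-iWAT-Exos, 62.7 in HFD-vWAT-Exos, 64.8 in HFD-BAT-Exos, 68.7 in LFD-iWAT-Exos, 39.5 in LFD-vWAT-Exos, 65.7 in LFD-BAT-Exos and 61.5 in Control. The other 6 libraries spanned only a 1.12-fold range for Elovl5, and LFD-vWAT-Exos lay below it. Elovl6 shares 6.52% of its 31-base words with other genes, mostly with the processed pseudogene Gm11295, and Elovl5 shares none.

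The desaturases of saturated chains went the other way. Scd2 (chr19:44293674-44306864, plus strand) was at 371 CPM in HFD-iWAT-Exos, 355 in HFD-vWAT-Exos, 343 in HFD-BAT-Exos, 408 in LFD-iWAT-Exos, 485 in LFD-vWAT-Exos, 357 in LFD-BAT-Exos and 362 in Control. The 2 highest libraries were LFD-vWAT-Exos and LFD-iWAT-Exos. Its neighbour Scd1 (chr19:44394455-44407879, minus strand) was at 86.0 CPM in HFD-iWAT-Exos, 72.0 in HFD-vWAT-Exos, 78.4 in HFD-BAT-Exos, 95.6 in LFD-iWAT-Exos, 92.0 in LFD-vWAT-Exos, 71.7 in LFD-BAT-Exos and 76.1 in Control. For Scd1 LFD-vWAT-Exos lay just under LFD-iWAT-Exos, so it was not outside the other libraries. The paralogs Scd3 and Scd4 had at most 6 and 7 counts in any library. Scd1 shares 5.18% of its 31-base words with Scd2, and Scd2 shares 4.63% of its own with Scd1, so few reads could be assigned to the wrong one.

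Fads1 and Fads2 lie close together on chromosome 19 and encode the delta-5 and delta-6 desaturases. Fads1 (chr19:10182888-10196877, plus strand) was at 99.8 CPM in HFD-iWAT-Exos, 99.98 in HFD-vWAT-Exos, 102 in HFD-BAT-Exos, 108 in LFD-iWAT-Exos, 79.4 in LFD-vWAT-Exos, 97.0 in LFD-BAT-Exos and 107 in Control. Fads2 (chr19:10062765-10101746, minus strand) was at 29.0 CPM in HFD-iWAT-Exos, 28.7 in HFD-vWAT-Exos, 27.8 in HFD-BAT-Exos, 32.9 in LFD-iWAT-Exos, 19.2 in LFD-vWAT-Exos, 27.2 in LFD-BAT-Exos and 27.7 in Control. Both genes were lowest in LFD-vWAT-Exos and highest in LFD-iWAT-Exos. Fads1 shared no 31-base word with another gene, and Fads2 shared 0.729% with Fads3.

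Levels of different genes can be compared only per length. By the deposited FPKM, Scd2 was the most abundant, with a median of 66.7 FPKM over the 6 libraries other than LFD-vWAT-Exos and 84.4 FPKM in LFD-vWAT-Exos. Fads1 (median 29.4 FPKM), Acly (23.9), Fads2 (18.8), Elovl5 (16.8) and Scd1 (16.1) followed, and Fasn had 8.89, Elovl6 2.59 and Acaca 2.33 FPKM. Over these libraries the range of Scd1 overlapped those of Fads2 and Elovl5, and the ranges of Elovl6 and Acaca overlapped, while the other neighbours in this order did not. The lengths behind the FPKM differ from annotated exon lengths, by a factor of 0.458 for Fads2 (1508 against 3295 bases) and 1.72 for Elovl6 (11053 against 6431 bases). With GENCODE exon lengths, an alternative chosen after seeing the data, Scd2 stayed first at 65.9 and Acaca last at 2.73 CPM per kilobase. Acly then came second (36.9) before Fads1 (21.0), and Fads2 moved to the seventh place (8.58). The order of the middle genes thus depends on the lengths, while the ratios between libraries do not.

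The variation among the 6 libraries other than LFD-vWAT-Exos was small. The highest over the lowest CPM ranged from 1.11 for Fads1 to 1.41 for Elovl6, with a median of 1.19, and none of the 9 genes reached 1.5-fold. Over 9351 genes with a mean of at least 10 CPM the median was 1.24, and 15.5% reached 1.5-fold. Within this narrow range LFD-iWAT-Exos was the highest library for 6 genes (Acly, Elovl5, Scd1, Scd2, Fads1 and Fads2) and the lowest for Elovl6. HFD-BAT-Exos was the lowest for Acly, Acaca, Fasn and Scd2, LFD-BAT-Exos was the lowest for Scd1, Fads1 and Fads2, and Control was the lowest for Elovl5. The share of all genes with their highest or lowest value in each library was not counted, so nothing particular to the enzymes is read from this. In pairs without LFD-vWAT-Exos, genes apart were most for LFD-iWAT-Exos against Control (637) and LFD-BAT-Exos against LFD-iWAT-Exos (644), and 210 to 362 otherwise. Against the mean of these 6 libraries on the log2 scale, LFD-vWAT-Exos differed by -2.22 for Elovl6, -1.98 for Acaca, -0.71 for Elovl5, -0.59 for Fads2, -0.36 for Fads1, -0.31 for Acly, -0.24 for Fasn, 0.21 for Scd1 and 0.41 for Scd2. It was below all 6 for 7 genes and above all 6 for Scd2, and the median difference was -0.36. Of the 9351 genes, 40.6% were below and 42.3% above all 6 others in this library, with a median difference of 0.02, and 13.6% were at least 2-fold lower than the mean. Bulk RNA cannot separate a change in RNA per cell from a change in the kinds of cells present.

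The first comparison asked how obesity of the donor changes the effect of exosomes from each depot. In vWAT, Acaca and Elovl6 were higher with HFD-vWAT-Exos than with LFD-vWAT-Exos, and the stearoyl-CoA desaturases were lower. The ratio was 3.72 for Acaca (3.13 to 4.45) and 4.84 for Elovl6 (3.83 to 6.20). These 2 genes were apart, both higher, which is 22.2% of the 9, where 29.6% of all 12619 genes were apart and 17.6% were apart and higher. The share was below that of all genes in either direction and above that of all genes that were higher, by a count of 2 genes, and nothing particular to the enzymes is read from it. Elovl5 was 1.58 times as high in HFD-vWAT-Exos (1.43 to 1.76), Fads2 1.497 times (1.29 to 1.74), Fasn 1.33 times (1.24 to 1.42), Fads1 1.26 times (1.17 to 1.36) and Acly 1.20 times (1.14 to 1.27). Scd2 had a ratio of 0.732 (0.708 to 0.757) and Scd1 of 0.783 (0.725 to 0.845). The median log2 ratio of the 9 genes was 0.41, and that of all genes tested was 0.04.

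In the other depots none of the 9 genes was apart. In iWAT 2.54% of all 12424 genes were apart. The ratio of HFD-iWAT-Exos to LFD-iWAT-Exos was 1.41 for Elovl6 (1.26 to 1.58), 1.15 for Acaca (1.05 to 1.25) and 1.11 for Fasn (1.05 to 1.17), and it was 0.856 to 0.946 for the other 6 genes. Of these 6, the interval excluded equal levels for 5 and held it for Elovl5. Over all genes in iWAT the interval excluded equal levels for 44.8%. Counting intervals narrow as counts rise, and all genes tested include those near 1 CPM. Such shares are therefore not like for like with the 9 genes. In BAT 1.97% of all 12457 genes were apart. The ratio of HFD-BAT-Exos to LFD-BAT-Exos was 0.831 for Fasn (0.786 to 0.879), 0.882 for Acaca (0.807 to 0.963), 0.961 for Scd2 (0.932 to 0.992) and 1.09 for Scd1 (1.02 to 1.17), and the intervals of the other 5 genes held equal levels. Over all genes in BAT the interval excluded equal levels for 38.1%. Of the synthesis genes, Acaca and Fasn were therefore slightly higher with HFD exosomes in iWAT and slightly lower in BAT. Acly did not share this, with a ratio of 0.856 in iWAT (0.820 to 0.893) and 0.996 in BAT (0.954 to 1.04). The plot of diet ratios shows the 3 depots side by side.

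**Figure D2:**
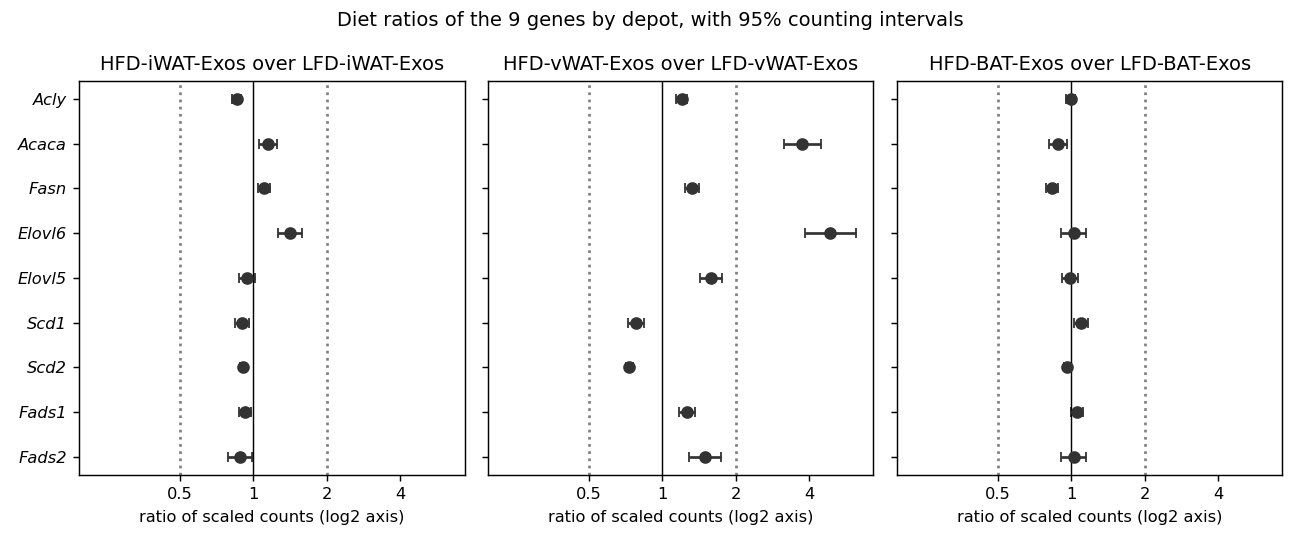
Ratio of TMM-scaled counts of HFD over LFD exosome libraries in each depot for the 9 genes, on a log2 axis, with 95% counting intervals and dotted lines at 2-fold. Acaca at 3.72 and Elovl6 at 4.84 in vWAT lie beyond 2-fold, and all ratios in iWAT and BAT lie between 0.831 and 1.41.

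Against Control, the 6 comparisons share 1 library. None of the 9 genes was apart with HFD-iWAT-Exos, HFD-vWAT-Exos, HFD-BAT-Exos, LFD-iWAT-Exos or LFD-BAT-Exos, where 2.91%, 1.99%, 2.27%, 5.12% and 1.76% of all genes were apart. With LFD-vWAT-Exos, Elovl6 had a ratio of 0.195 (0.153 to 0.247) and Acaca of 0.237 (0.199 to 0.281). These 2 genes were apart and lower, against 30.5% of all 12589 genes apart and 17.4% apart and lower. Scd2 was 1.34 times as high as in Control (1.29 to 1.38) and Scd1 1.21 times (1.12 to 1.30). With LFD-iWAT-Exos, Elovl6 was also lower, at a ratio of 0.755 (0.675 to 0.844), and Scd1 was higher at 1.26 (1.18 to 1.34). With HFD-iWAT-Exos the intervals of 6 genes held equal levels, where those of 48.0% of all genes excluded them, and the largest ratio was 1.13 for Scd1 (1.05 to 1.21). With HFD-vWAT-Exos the ratios spanned 0.884 for Acaca to 1.10 for Fasn, with HFD-BAT-Exos 0.836 for Fasn to 1.05 for Elovl5, and with LFD-BAT-Exos 0.847 for Elovl6 to 1.07 for Elovl5.

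Depots were then compared within a diet. In HFD none of the 9 genes was apart between vWAT and iWAT, BAT and iWAT, or vWAT and BAT, where 2.31%, 1.95% and 1.69% of all genes were. The largest difference there was that of Fasn, at 1.31 times the HFD-BAT-Exos level in HFD-vWAT-Exos (1.24 to 1.38). In LFD, the ratio of LFD-vWAT-Exos to LFD-iWAT-Exos was 0.259 for Elovl6 (0.202 to 0.328) and 0.267 for Acaca (0.224 to 0.316). Both were apart and lower, beside 29.0% of all genes apart and 17.1% apart and lower. Against LFD-BAT-Exos the ratio of LFD-vWAT-Exos was 0.231 for Elovl6 (0.180 to 0.292) and 0.243 for Acaca (0.204 to 0.289), beside 29.9% of all genes apart and 17.4% apart and lower. None of the 9 genes was apart between LFD-BAT-Exos and LFD-iWAT-Exos, where 5.16% of all genes were, and the largest difference was the ratio of 0.750 for Scd1 (0.703 to 0.799). Over the 11 comparisons without LFD-vWAT-Exos the 99 ratios ran from 0.750 to 1.41. The interval excluded equal levels in 54 of them, where it did so for 34.6% to 54.7% of all genes in these comparisons. No replicates show how much of this lies within the difference between cultures. The 2 shares are not like for like, since intervals narrow as counts rise and all genes tested include those near 1 CPM.

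Ratios of 2 genes within 1 library do not depend on scaling between libraries. The count ratio of Fasn to Acaca was 8.50 in LFD-vWAT-Exos (7.18 to 10.1) and 2.38 to 3.03 in the other 6 libraries, and that of Acly to Acaca was 13.7 (11.6 to 16.2) and 3.81 to 5.12. In LFD-vWAT-Exos Acaca was thus low relative to the genes of the enzymes before and after it in the pathway. Both ratios rest on the same 152 counts of Acaca and restate its low value without scaling. The ratio of Elovl5 to Elovl6 was 6.42 in LFD-vWAT-Exos (5.05 to 8.24) and 1.93 to 2.88 in the others, the highest of which was LFD-iWAT-Exos. The paired desaturases kept their proportions more closely. Scd2 to Scd1 was 5.26 in LFD-vWAT-Exos (4.95 to 5.61) and 4.27 to 4.98 in the others, and Fads1 to Fads2 was 4.14 (3.60 to 4.78) and 3.27 to 3.85, and for both the interval of LFD-vWAT-Exos overlapped that of the next highest library. The plot of count ratios within libraries shows all 4 pairs drawn.

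**Figure D3:**
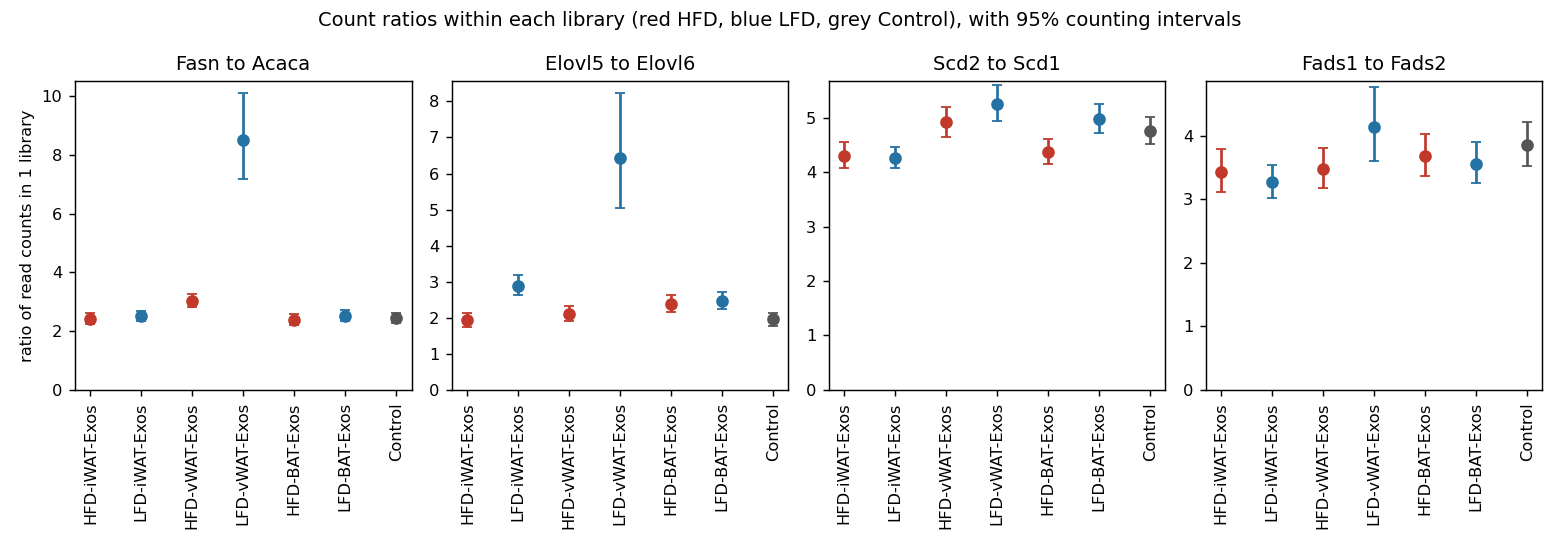
Ratio of the read counts of 2 genes within each library, with 95% counting intervals and HFD in red, LFD in blue and Control in grey. LFD-vWAT-Exos lies far above the other libraries for Fasn to Acaca (8.50) and Elovl5 to Elovl6 (6.42) and near them for Scd2 to Scd1 (5.26) and Fads1 to Fads2 (4.14).

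Main effects of diet, depot and exosomes were fitted with edgeR (quasi-likelihood), and p was adjusted over all genes by the Benjamini-Hochberg method. For diet with depot as a block, 0 of the 9 genes passed and 0.0% of 13441 genes did, with 73 genes and none of the 9 at an unadjusted p under 0.05. DESeq2 called 8 genes and limma-voom 0, in neither case one of the 9, although Elovl6 was under an unadjusted 0.05 in DESeq2. The largest differences were 0.88 for Elovl6 (SE 0.47, edgeR adjusted p = 0.888) and 0.60 for Acaca (SE 0.44, edgeR adjusted p = 0.888), both on the log2 scale and higher with HFD. They were 0.26 and 0.01 without LFD-vWAT-Exos and also without HFD-vWAT-Exos, since leaving out either library removes the vWAT pair from this fit. For depot with diet as a block, 0 of the 9 genes passed for vWAT against iWAT, BAT against iWAT or vWAT against BAT, and 0.0% of all genes did, with 366, 124 and 120 genes and none of the 9 at an unadjusted p under 0.05 in edgeR. DESeq2 called 10, 2 and 11 genes there and limma-voom 0 in each, again none of the 9. Acaca differed by -0.92 (SE 0.54) and Elovl6 by -0.89 (SE 0.57) in vWAT against iWAT, with an edgeR adjusted p of 0.777 for both, and without LFD-vWAT-Exos by -0.12 and -0.07. Without HFD-vWAT-Exos, where LFD-vWAT-Exos alone stands for vWAT and is assumed to vary like the other groups, they differed by -1.99 and -2.06 and were called by edgeR (adjusted p = 0.000969 for Acaca and 0.00139 for Elovl6), as were 5623 of 13922 genes. For AT-Exos against Control, 0 of the 9 genes passed in edgeR, beside 0.00709% of 14102 genes, which is 1 gene. Control is a single library there, so the spread comes only from the 6 exosome libraries, which differ in diet and depot. In that fit 120 genes and none of the 9 had an unadjusted p under 0.05, and DESeq2 and limma-voom called 5 genes and 1 gene, none of them among the 9. A fit in which 2 residual degrees of freedom remain, as for diet and depot, treats any dependence of the diet difference on depot as error.

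Another 52 genes of the pathway were chosen as a list of suppliers, partners and regulators, and 43 or 44 of them could be compared in each pair. Between HFD-vWAT-Exos and LFD-vWAT-Exos, 9 were apart and higher and 5 apart and lower, which is 32.6% of 43 beside 29.6% of all genes. Of the suppliers of NADPH, the reducing power of synthesis, Idh1 was higher at 165 CPM with HFD-vWAT-Exos and 69.7 CPM with LFD-vWAT-Exos, and Pgd was lower at 58.1 and 170 CPM. In the elongation cycle, the dehydratase Hacd4 was at 50.9 CPM with HFD-vWAT-Exos and 9.75 CPM with LFD-vWAT-Exos, a ratio of 5.22 (4.33 to 6.33), and its relative Hacd1 at 11.1 and 26.1 CPM. The electron chain of the desaturases was also represented, with Cyb5r3 at 1098 CPM in HFD-vWAT-Exos against 529 CPM in LFD-vWAT-Exos and Cyb5a at 86.2 against 42.1 CPM. The desaturase homolog Fads3 was at 127 CPM in HFD-vWAT-Exos and 63.3 CPM in LFD-vWAT-Exos. Acsl4, which activates arachidonic acid, was lower at 71.2 CPM in HFD-vWAT-Exos against 175 CPM in LFD-vWAT-Exos.

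Regulators were also described. Mid1ip1, whose protein promotes assembly of acetyl-CoA carboxylase, was at 13.3 CPM in HFD-vWAT-Exos and 3.59 CPM in LFD-vWAT-Exos, a ratio of 3.71 (2.71 to 5.18). Srebf1, the gene of SREBP-1, was at 59.6 CPM in HFD-iWAT-Exos, 63.3 in HFD-vWAT-Exos, 69.97 in HFD-BAT-Exos, 61.5 in LFD-iWAT-Exos, 126 in LFD-vWAT-Exos, 65.5 in LFD-BAT-Exos and 67.7 in Control. It was thus highest in the library in which Acaca and Elovl6 were lowest, with a ratio of 0.503 for HFD-vWAT-Exos over LFD-vWAT-Exos (0.468 to 0.541), which did not reach 2-fold. Srebf2, the factor of cholesterol synthesis, was at 173 CPM in HFD-vWAT-Exos and 95.7 CPM in LFD-vWAT-Exos, a ratio of 1.81 (1.69 to 1.93), and at 152 to 199 CPM in the other 5 libraries. Insig2, which retains SREBP precursors in the endoplasmic reticulum, was at 89.1 CPM in HFD-vWAT-Exos and 179 CPM in LFD-vWAT-Exos. The LXR gene Nr1h2 was at 59.3 CPM in HFD-vWAT-Exos and 86.0 CPM in LFD-vWAT-Exos, its relative Nr1h3 at 1.58 to 2.48 CPM in all 7 libraries, and Mlxipl, the gene of ChREBP, was below 1 CPM in every library. Among SREBP-2 targets, Hmgcs1 (134 CPM in HFD-vWAT-Exos against 51.2 in LFD-vWAT-Exos) and Idi1 (17.1 CPM in HFD-vWAT-Exos against 7.25 in LFD-vWAT-Exos) were apart and higher, and Sqle (68.3 CPM in HFD-vWAT-Exos against 173 in LFD-vWAT-Exos) was apart and lower. In iWAT 0 of 44 pathway genes were apart, and in BAT 1 of 44, the elongase Elovl7, at 0.593 CPM in HFD-BAT-Exos and 1.59 CPM in LFD-BAT-Exos. Of the 52 genes, 44 passed the filter of the edgeR fits, and none of these was called. The plot of LFD-vWAT-Exos against the other libraries shows the 9 genes among these.

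**Figure D4:**
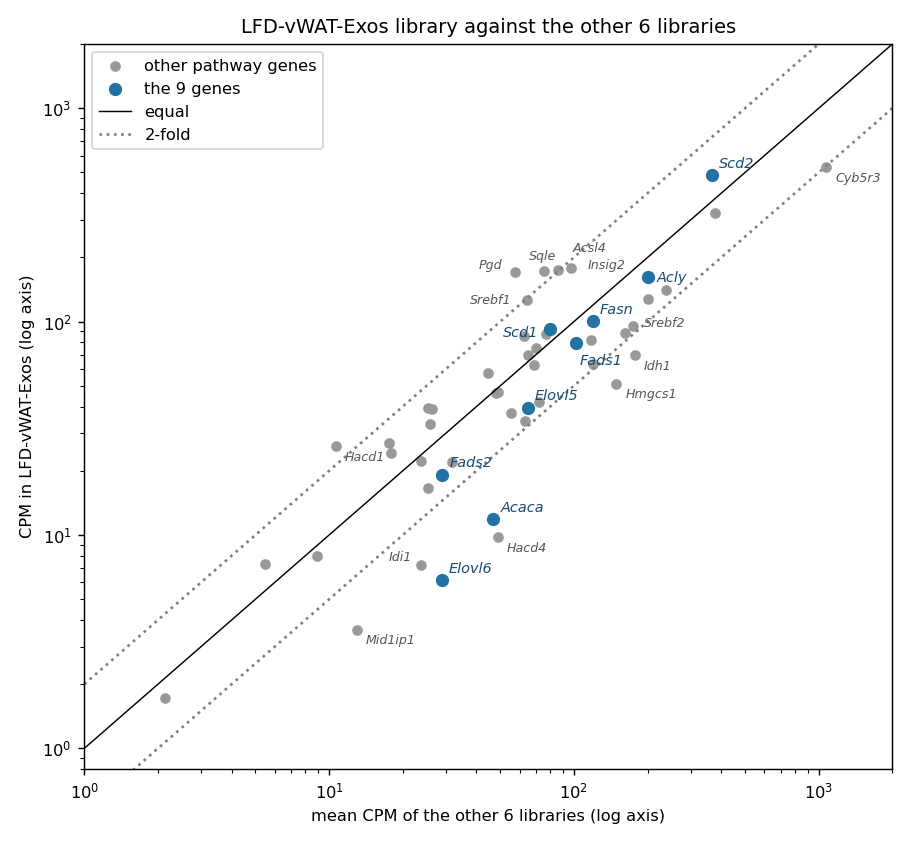
CPM in LFD-vWAT-Exos against the mean CPM of the other 6 libraries, both on log axes, for the 9 genes (blue) and other pathway genes with a mean of at least 1 CPM (grey), with a line of equal levels and dotted lines at 2-fold. Acaca and Elovl6 lie below the lower dotted line with Hacd4, Mid1ip1, Hmgcs1, Idi1, Idh1 and Cyb5r3, while Pgd, Sqle, Hacd1 and Acsl4 lie above the upper one.

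The pattern of each gene over the libraries was compared with that of 9350 other genes with a mean of at least 10 CPM, by Pearson correlation of log2(CPM + 1). The points share depth and scaling, so the values are a description. Over the 6 libraries without LFD-vWAT-Exos, the correlations between pairs of the 9 genes ran from -0.74 to 0.91 with a median of 0.08, so the 9 enzymes did not share 1 order of libraries. The 6 genes that were highest in LFD-iWAT-Exos were Acly, Elovl5, Scd1, Scd2, Fads1 and Fads2. Their correlations were positive in every pair, from 0.10 for Elovl5 and Fads1 to 0.91 for Scd2 and Fads2. They were picked by a shared highest library among the same 6 libraries, which favours positive values. The rest of the 9 also had positive ones among themselves, at 0.46 for Acaca and Fasn, 0.52 for Elovl6 and Fasn and 0.63 for Acaca and Elovl6. No grouping of the enzymes is read from these values. The 3 most alike there were Gm10184, Pcna and Mcmbp for Acly, Ift74, Trmt2a and Srek1ip1 for Acaca, Kif26b, Lman2l and Prkrip1 for Fasn, and Zfp318, Erc1 and Evi5 for Elovl6. They were Zfp120, Ifi204 and Riok3 for Elovl5, Aurka, Ncapg2 and Prr11 for Scd1, Klhl12, Imp3 and Dnmt1 for Scd2, Tmtc4, Nudc and Dazap2 for Fads1, and Tmem8b, Gtf3c5 and Extl3 for Fads2. Their r over 6 libraries ranged from 0.97 to 1.00. As the closest of 9350 genes over only 6 points, they have a high r by selection. Their highest over lowest CPM in these libraries ran from 1.08 for Dazap2 to 2.90 for Prr11. Over all 7 libraries, where LFD-vWAT-Exos sets much of the value, the median between pairs of the 9 genes was 0.57. The most alike there were Ifit2, Parn and Gpsm2 for Acaca, Dnajb14, Gli1 and Tmeff1 for Elovl6, Jup, Golt1b and Acacb for Elovl5, Myo10, Gm5424 and Tnfaip1 for Fads2, and Tmtc4 and S100a13 for Fads1. For Acly they were Gm10184, Tuba1b and Mrpl13, for Scd1 Ctsh, Rpsa and Txnl4a, for Scd2 Klhl12, Nup155 and Mcm7, and for Fasn Rab11fip3, Lman2l and a gene whose symbol had been turned into a date in the table.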

How the data were processed

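RNA of 7 libraries, 1 per group, was analysed. Per the study's methods and processing notes, the authors mapped reads with HISAT2, quantified genes with StringTie and used edgeR, with no versions given. A human reference is named in these methods, and the mouse build is not given in the sources used here. The deposited counts are whole numbers of reads per gene, to which the authors applied no scaling. The deposited FPKM had been derived by the authors from those counts, the library total and a gene length. Coordinates and sequences are from GENCODE vM21 (GRCm38) and RefSeq (GRCm38.p6), whose promoter windows matched 6 of the 9 genes by symbol.

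TMM factors from edgeR 4.0.16 (R 4.3.3), computed on 12090 genes, ranged from 0.950 (LFD-vWAT-Exos) to 1.01. For 15 pairs of libraries, ratios were given with exact Clopper-Pearson 95% intervals (SciPy 1.17.1), provided 1 of the 2 libraries reached 1 CPM. To be apart, a gene needed a log2 ratio of at least 1 in size, with a prior count of 2, and an interval without equal levels. A floor of 3 counts corresponds to 0.122 to 0.234 CPM. Main effects of diet (depot as a block), depot (diet as a block) and exosomes were tested in edgeR by quasi-likelihood, after filtering with filterByExpr, at a Benjamini-Hochberg adjusted p of 0.05. The SE was obtained as the size of the log2 difference over the root of F. Alternatives were DESeq2 1.42.0, limma-voom (limma 3.58.1), other scalings, filters and thresholds, and leaving out each exosome library. P-values measure the spread between these libraries, and the labels do not say whether they came from separate cultures. The scripts were tested on simulated data with less spread between libraries than the edgeR fits estimated here. Such a test checks the code and does not show how well changes are found in these data.

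Named genes were the 9 enzymes, genes of the pathway list apart in an HFD against LFD comparison or called in a fit, Srebf1, Srebf2, Mlxipl, Nr1h2 and Nr1h3, and the 3 genes most alike each enzyme over 6 and over 7 libraries. The enzymes and lists were chosen with earlier results of these data known. Some genes that the rule takes in are not reported here. Hsd17b12 falls outside the rule and was named after its values were seen.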

Additional observations from a re-analysis of the deposited data

Results flagged for a closer look

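Acaca was the only one of the 9 genes that was apart in 1 depot and whose interval lay on the other side of equal levels in another. Its ratio of HFD to LFD exosomes was 3.72 in vWAT (3.13 to 4.45), 1.15 in iWAT (1.05 to 1.25) and 0.882 in BAT (0.807 to 0.963). The difference between depots was not tested, since each group has 1 library. How many of all genes were apart in 1 depot and on the other side of equal levels in another was not counted. Nothing particular to Acaca is therefore read from this. In vWAT 29.6% of all genes were apart, and the interval excluded equal levels for 44.8% in iWAT and 38.1% in BAT. The value in vWAT rests on the LFD-vWAT-Exos library, and 31.7% of the sequence words of Acaca also occur in a pseudogene.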

How the results depend on the processing

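Of 90 recounts of how many of the 9 enzymes were apart between 2 libraries, with total counts or DESeq2 size factors in place of TMM, a filter of at least 10 CPM or of 1 count, log2 FPKM plus 1, or a fold of at least 1.5, 89 stayed within 1.5 times the count given, most of them at 0. The other was LFD-vWAT-Exos against LFD-iWAT-Exos, with 4 genes apart at a fold of at least 1.5. Of 405 single ratios under other scalings or FPKM plus 1, 20 moved beyond their counting interval, and no gene that was apart changed direction. With another test, scaling or filter, 0 of the 9 genes were called in all 20 refits. Among all genes DESeq2 called 8 for diet, 10 for vWAT against iWAT, 2 for BAT against iWAT, 11 for vWAT against BAT and 5 for AT-Exos against Control, where edgeR called 0, 0, 0, 0 and 1. Between HFD-vWAT-Exos and LFD-vWAT-Exos 3741 genes were apart, against 6448 at a fold of at least 1.5 and 2021 with FPKM plus 1, and the counts of the other pairs moved the same way under these 2 settings. In the 11 pairs without LFD-vWAT-Exos, which had 210 to 644 genes apart, a filter of at least 10 CPM left 67 to 289 and no filter beyond 1 count gave 536 to 1149. Leaving out each exosome library in turn gave 0 to 4 genes called in vWAT against iWAT and 0 to 3 in vWAT against BAT, and 0 to 0 in diet, in BAT against iWAT and in AT-Exos against Control. The 4 and 3 arose without HFD-vWAT-Exos, when LFD-vWAT-Exos alone stands for vWAT and is assumed to vary like the other groups, and 5623 and 5587 of 13922 genes were then called. Over these refits the diet difference ranged from 0.01 to 1.02 for Acaca and from 0.26 to 1.35 for Elovl6, lowest without LFD-vWAT-Exos or without HFD-vWAT-Exos, and that of vWAT against iWAT from -1.99 to -0.12 for Acaca and from -2.06 to -0.07 for Elovl6. Acaca alone differed between depots by the rule given above under all 6 alternatives to it. No paired analysis was possible because each group has 1 library, so that no replicate numbers pair samples across groups, and the only block in the fits is the depot or the diet already given. With GENCODE lengths, chosen after seeing the data, 7 of the 9 levels per length moved by more than their spread. The lowest values rest on 79 and 152 counts in the library of least depth.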

Other observations

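Among the pathway genes, Hsd17b12, the ketoacyl reductase of the elongation cycle, was chosen after its values were seen. It was lower with HFD than with LFD exosomes in all 3 depots, at 38.9 CPM in HFD-iWAT-Exos against 72.9 in LFD-iWAT-Exos, 34.3 in HFD-vWAT-Exos against 46.4 in LFD-vWAT-Exos and 41.3 in HFD-BAT-Exos against 67.7 in LFD-BAT-Exos. It was at 34.3 CPM in Control. The ratios of HFD to LFD were 0.533 in iWAT (0.488 to 0.582), 0.740 in vWAT (0.663 to 0.825) and 0.610 in BAT (0.561 to 0.662). The log2 difference over depots was -0.70 (SE 0.18, edgeR adjusted p = 0.888), so it did not pass the test. How many of all genes were lower in all 3 depots was not counted, so nothing particular to Hsd17b12 is read from this. The ratio in vWAT involves LFD-vWAT-Exos, the library that stood apart from the rest.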
